A study of Mus musculus with 36 samples.

Results

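The genes described here are the plasma lipases Lpl, Lipc and Lipg, the phospholipid transfer protein gene Pltp, the cholesterol acyltransferase gene Lcat, the angiopoietin-like regulators Angptl4 and Angptl8, and Gpihbp1. They were chosen by name, as the entries of the deposited expression table that carry these 8 symbols, and all 8 were found among its 49315 genes. Liver polyA RNA was sequenced from 36 male mice, 11 to 12 weeks old, in 9 groups of 4. CRISPR editing had replaced tryptophan 441 of the nuclear receptor LXRalpha by phenylalanine, and the genotypes were W/W (homozygous controls), W/F (heterozygotes) and F/F (homozygous for the mutation). Mice of all 3 genotypes were kept on chow, on a MASH-promoting diet high in fat and cholesterol (Teklad TD.96121, 4 weeks) with vehicle, and on that diet with the LXR agonist T0901317 (10 mg/kg). Both MASH diet groups were gavaged daily, with vehicle or agonist, during the final 2 weeks. MASH stands for metabolic dysfunction-associated steatohepatitis, the inflamed and scarred form of fatty liver. The number of founder lines is not given in the sources used here. The series' text pairs LXRalpha with the symbol Nr1h2, although the receptor's usual mouse symbol is Nr1h3. The chow mice were a separate cohort without gavage, so diet, gavage and cohort cannot be told apart in any comparison with chow.

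Triglyceride leaves the liver and gut in lipoproteins and is released from them by lipoprotein lipase (Lpl) on the capillary wall, where the endothelial protein GPIHBP1 holds the enzyme. ANGPTL4 and ANGPTL8 take part in inhibiting lipoprotein lipase, ANGPTL8 in the fed state and ANGPTL4 mostly in fasting. Hepatic lipase (Lipc) and endothelial lipase (Lipg) act on remnants and on high-density lipoprotein (HDL), while PLTP moves phospholipid onto HDL and LCAT esterifies its cholesterol. LXRs are sterol-sensing receptors, and Lpl and Pltp are textbook LXR target genes. Adult hepatocytes make little Lpl, and macrophages, adipocytes and muscle make more.

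The sequences before the transcription start are shown for 3 genes whose transcripts differed between groups below, because an agonist-bound LXR is known to recognise paired half-sites near its target genes. They are the 250 bases before the start in RefSeq windows of build GRCm38.p6, written 5′ to 3′ on the gene's own strand, and windows were matched for 4 of the 8 genes (Pltp, Lcat, Angptl8 and Lipc, the last with 2 starts). Capitals mark the only match, in the upstream bases of the 5 windows, to any of the 5 motifs searched on both strands.
Pltp, chr2:164857709-164857958, minus strand: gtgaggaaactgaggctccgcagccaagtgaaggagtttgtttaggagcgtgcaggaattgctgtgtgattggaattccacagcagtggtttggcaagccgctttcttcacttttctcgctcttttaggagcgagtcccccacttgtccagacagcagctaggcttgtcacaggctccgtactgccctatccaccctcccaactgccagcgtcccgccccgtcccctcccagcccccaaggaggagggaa
Angptl8, chr9:21835260-21835509, plus strand: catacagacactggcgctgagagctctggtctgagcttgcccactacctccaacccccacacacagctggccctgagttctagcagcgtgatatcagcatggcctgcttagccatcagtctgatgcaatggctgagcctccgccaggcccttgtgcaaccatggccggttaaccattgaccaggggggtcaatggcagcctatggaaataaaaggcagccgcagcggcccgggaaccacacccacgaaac
Lipc, second start, chr9:70934809-70935058, minus strand: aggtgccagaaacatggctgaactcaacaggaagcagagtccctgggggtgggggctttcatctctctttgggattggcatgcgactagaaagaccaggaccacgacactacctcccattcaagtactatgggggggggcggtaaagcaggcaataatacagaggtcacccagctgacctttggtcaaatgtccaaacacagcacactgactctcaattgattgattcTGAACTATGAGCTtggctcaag

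The motifs were DR4 (2 copies of AGGTCA separated by 4 bases) and DR1 (2 copies separated by 1 base), each with up to 2 mismatches, the E box CACGTG, the sterol element TCACCCCAC with up to 1 mismatch, and TATAAA. A DR4, the spacing that LXR is known for, was in none of the 5 windows and in 3.02% of all 32851 windows of 300 bases. The capitals in the Lipc window are a DR1 with 2 mismatches, on the strand opposite to the gene, and 3.86% of all windows held a DR1. TATAAA occurred in the Pltp window alone, beginning 37 bases after the start and so outside the bases shown, against 13.6% of all windows. The E box and the sterol element were in none of the 5 and in 7.15% and 9.82% of all windows. A match or its absence in these windows describes letters only.

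Values are TPM, transcripts per 1000000 sequenced transcripts. Depth, recovered from the step size of low TPM values, was 18.1 to 35.8 M reads assigned to genes per library (M, 1000000). Lipg had 55 to 982 reads per library, Lpl 130 to 14548, Pltp 82 to 9114 and Lcat 4434 to 9158. Libraries of a group correlated at 0.962 to 0.987 over all genes, and none were identical. All 6 hepatocyte markers had means of at least 1 TPM in every group. A few libraries stood apart. F/F vehicle replicate 3 had 84.9 TPM of summed muscle markers, including 39.6 TPM of Acta1, and W/W vehicle replicate 1 had 115 TPM of exocrine pancreas markers. W/F T0901317 replicate 2 had 739 TPM of summed macrophage markers, where the other 3 mice had 129.5 to 243 TPM. Gene-level TPM do not show the edited codon, so they do not check the genotype labels.

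On GRCm38 with GENCODE M21, the 8 genes lie on 6 chromosomes. Lpl is at chr8:68880491-68907448 and Lcat at chr8:105939551-105943382, Lipc at chr9:70798128-70952226 and Angptl8 at chr9:21835510-21837347. Pltp is at chr2:164839518-164857711, Angptl4 at chr17:33773750-33781830, Gpihbp1 at chr15:75596628-75599481 and Lipg at chr18:74939322-74961263. Pltp shares 495 exon bases, 19.3% of its exon length, with Ctsa on the other strand, and reads there cannot be assigned to a strand since the strand setting is not given in the sources used here. Angptl8 lies inside Dock6 on the other strand and shares no exon bases with it.

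Levels differed widely between the 8 genes, and TPM are per length, so they can be compared. Lcat was the most abundant, at 345 to 636 TPM over all mice, and Lipg and Gpihbp1 were the least, at 1.32 to 25.0 and 5.05 to 17.4 TPM. Lpl and Pltp moved most between groups: the highest group mean was 64.6-fold the lowest for Lpl and 44.6-fold for Pltp. For Lipg and Angptl8 this ratio was 5.93 and 5.80, for Lipc 2.59, and for Lcat, Angptl4 and Gpihbp1 1.59 to 1.68. When the 9 groups of a gene were ordered by mean, 5 of 64 steps between neighbours (7.81%) separated all 4 mice of one group from all 4 of the next, where 7.15% of the steps of all 16638 genes tested did. These steps were from W/F chow to W/W chow and from W/W vehicle to F/F T0901317 for Lpl, from F/F T0901317 to W/F vehicle and from W/W chow to W/W T0901317 for Pltp, and from F/F vehicle to W/F vehicle for Lipc.

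**Figure D1:**
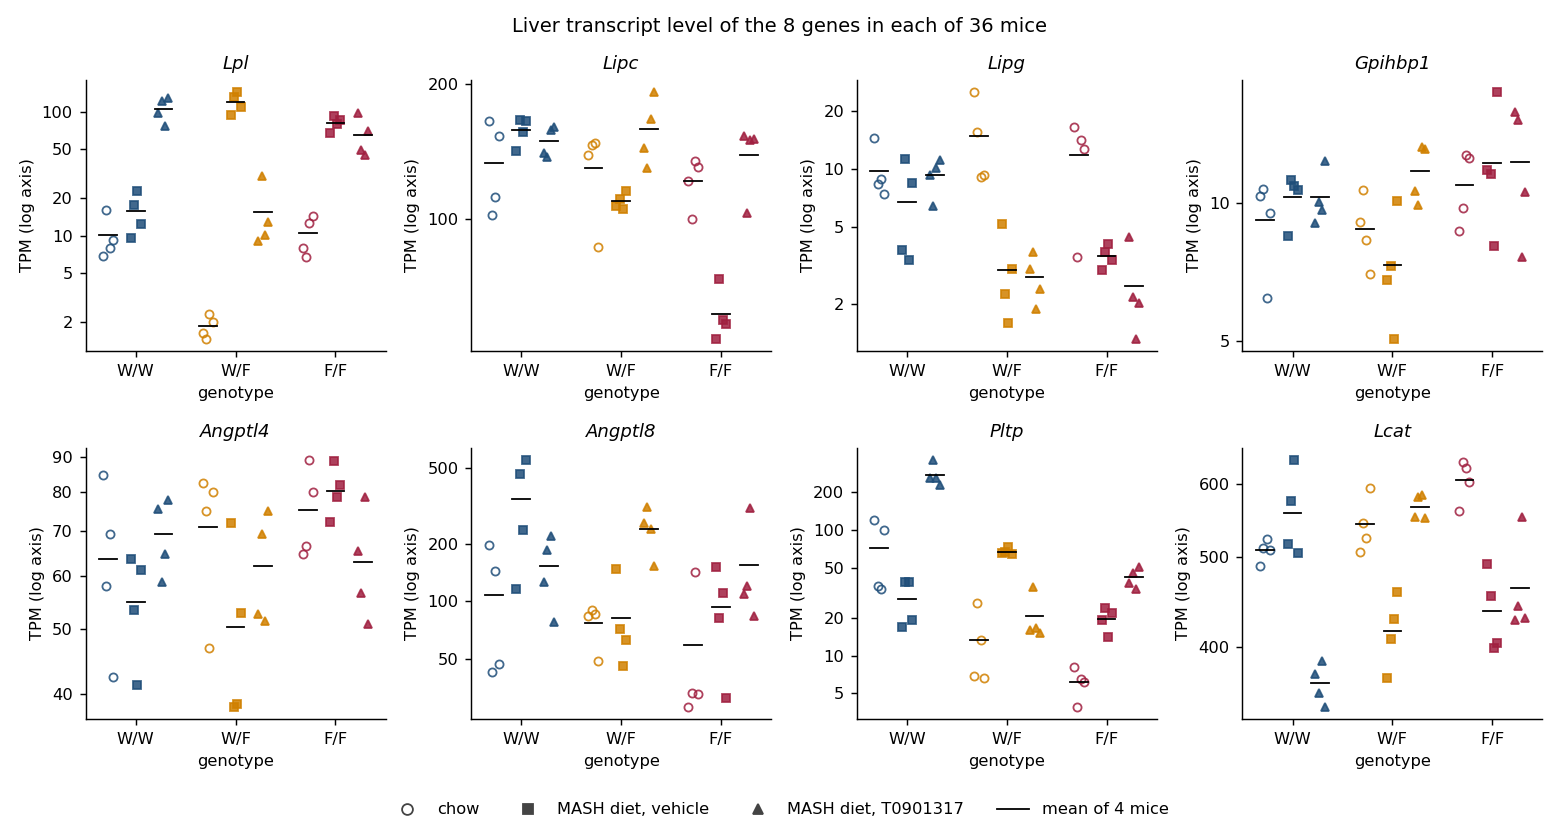
TPM (log axes) of the 8 genes in each of 36 mice, by genotype and treatment, with the mean of 4 mice as a line. Pltp stood highest in W/W mice on T0901317 (277 TPM) and Lpl in W/F mice on vehicle (119.5 TPM), and in W/F mice both were lower on T0901317 (15.5 TPM of Lpl, 20.7 TPM of Pltp) than on vehicle.

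Changes are differences of mean log2(TPM + 1), from a limma fit of 16638 genes, and a difference counts as called where its Benjamini-Hochberg adjusted p lay under 0.05. The added 1 understates the change of values near 1 TPM. TPM add up to a fixed total, and the median gene moved between groups: by -0.49 with T0901317 in W/F, by -0.24 in F/F, by 0.39 and 0.32 with the diet in W/F and F/F, and by 0.52, 0.70, 0.43, 0.43, 0.29, 0.26 and 0.18 in the genotype comparisons W/F against W/W on vehicle, F/F against W/W on vehicle, F/F against W/W on T0901317, F/F against W/F on T0901317, F/F against W/W on chow, F/F against W/F on chow and F/F against W/F on vehicle. Values after rescaling the libraries to a common median ratio are therefore given beside the deposited ones where they bear on a call.

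With T0901317, 3 of the 8 genes were called in W/W mice, 2 higher and 1 lower, where 10.8% of all genes tested were called. In W/F mice 6 were called, 4 higher and 2 lower, beside 65.9% of all genes, and the count was 6 or 7 whichever library was left out. In F/F mice 2 were called, 2 higher and 0 lower, beside 35.1%, a share that was 19.5% without F/F T0901317 replicate 3. After rescaling the splits were 2 higher and 1 lower in W/W (13.5% of all genes called), 5 higher and 2 lower in W/F (50.8%) and 3 higher and 0 lower in F/F (16.3%). The MASH diet with vehicle against chow gave 2 calls in W/W (12.9% of all genes), 5 in W/F (61%) and 5 in F/F (55.8%), and the splits were 1 higher and 1 lower, 2 higher and 3 lower and 2 higher and 3 lower. These became 1 higher and 1 lower, 2 higher and 5 lower and 2 higher and 3 lower after rescaling, beside 15.4%, 54.9% and 47% of all genes. The W/W share was 7.61% without W/W chow replicate 2 and 6.56% without W/W vehicle replicate 1.

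Between genotypes, W/F against W/W gave 2 calls on chow, where 0.487% of all genes were called (0.319% without W/W chow replicate 4), 7 on vehicle (68.5%) and 4 on T0901317 (9.88%). F/F against W/W gave 2 on chow (46.7%), 5 on vehicle (76.5%) and 4 on T0901317 (63.2%). F/F against W/F gave 1 on chow (41.4%), 4 on vehicle (21.3%) and 3 on T0901317 (62.6%). On vehicle the split was 2 higher and 5 lower in W/F against W/W, 1 higher and 6 lower after rescaling (53.1% of all genes). In F/F against W/W it was 2 higher and 3 lower on vehicle, 1 higher and 6 lower after rescaling (59.1%), 1 higher and 3 lower on T0901317, 0 higher and 5 lower after rescaling (46.9%), and 1 higher and 1 lower on chow, 0 higher and 2 lower after rescaling (29.9%). F/F against W/F went from 1 higher and 0 lower to 1 higher and 2 lower on chow (31.2%), from 2 higher and 2 lower to 0 higher and 2 lower on vehicle (10.6%) and from 2 higher and 1 lower to 1 higher and 2 lower on T0901317 (40.3%).

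**Figure D2:**
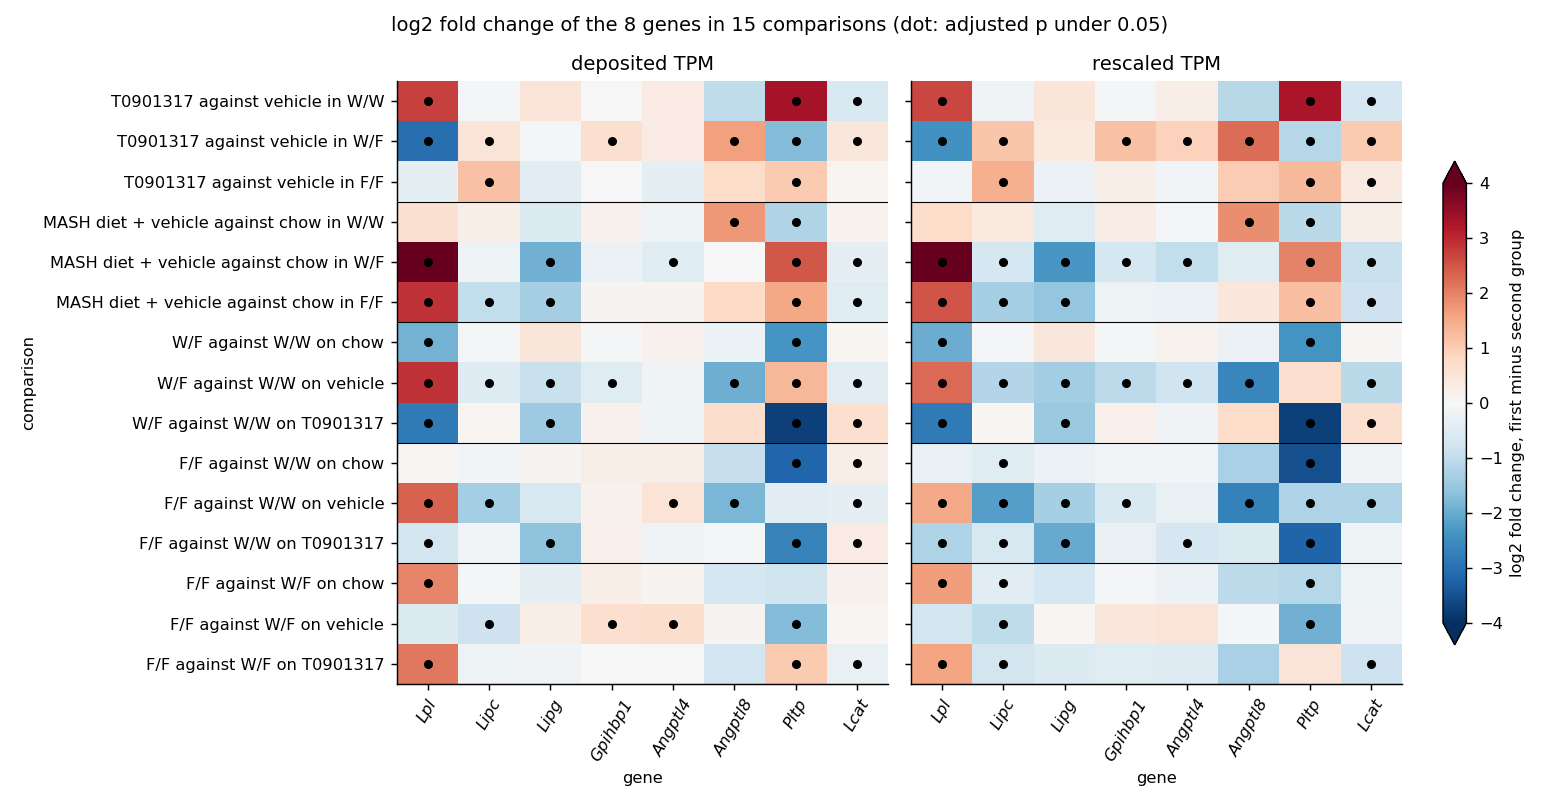
log2 fold changes (first minus second group) of the 8 genes in the 15 comparisons of 2 groups, from the deposited TPM at left and the rescaled TPM at right, with a dot where the adjusted p was under 0.05. The Lpl and Pltp columns change colour between W/W and W/F within the T0901317 comparisons in both scalings. In deposited TPM they go from 2.72 to -3.01 and from 3.32 to -1.74.

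Lpl, which encodes the lipase that clears circulating triglyceride, rose with T0901317 in W/W livers and fell in W/F livers. The 4 W/W vehicle mice had 9.63, 17.6, 23.1 and 12.4 TPM and the W/W T0901317 mice 97.1, 123, 76.3 and 128 TPM. Every agonist-treated W/W mouse was above every vehicle mouse. The means were 15.7 ± 5.93 TPM (SD, n = 4) and 106 ± 24.1 TPM (SD, n = 4), a log2 difference of 2.72 (SE 0.30, adjusted p = 1.32e-07). In W/F mice the values were 93.9, 130.3, 144 and 109.8 TPM on vehicle and 8.99, 30.2, 10.1 and 12.9 TPM on T0901317. Here the order was the opposite, with no overlap, and the highest treated mouse was the library with the raised macrophage markers. The log2 difference was -3.01 (SE 0.30, adjusted p = 1.42e-09), and it was -3.36 without that library.

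In F/F mice Lpl was 67.1, 91.8, 79.01 and 86.2 TPM on vehicle and 96.8, 48.8, 45.1 and 70.4 TPM on T0901317. These groups overlapped, and the log2 difference of -0.36 (SE 0.30, adjusted p = 0.351) had a 95% interval of -0.98 to 0.25. The response differed from that of W/W by -5.73 (SE 0.43, adjusted p = 2.52e-11) in W/F and by -3.09 (SE 0.43, adjusted p = 5.45e-06) in F/F. Both differences kept their sign and call after rescaling, at -5.09 and -2.77.

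On chow, Lpl was low in W/F livers. The mice had 1.62, 1.46, 2.32 and 1.99 TPM in W/F, 6.79, 16.1, 7.97 and 9.22 TPM in W/W and 8.003, 6.76, 12.7 and 14.4 TPM in F/F. All 4 heterozygotes lay below all 8 homozygotes of either kind, and the homozygotes overlapped. The log2 difference was -1.89 (SE 0.30, adjusted p = 0.000447) for W/F against W/W and 1.96 (SE 0.30, adjusted p = 8.14e-06) for F/F against W/F. The first of these had an adjusted p of 0.114 when only the W/F and W/W chow libraries were fitted.

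The diet comparison, which uses the same vehicle mice as the agonist comparison, gave log2 changes for Lpl of 0.60 (SE 0.30, adjusted p = 0.211) in W/W, 5.39 (SE 0.30, adjusted p = 7.08e-15) in W/F and 2.89 (SE 0.30, adjusted p = 4.52e-09) in F/F. The W/F rise exceeded the W/W value by 4.80 (SE 0.43, adjusted p = 1.11e-09), and the F/F rise exceeded it by 2.29 (SE 0.43, adjusted p = 0.000106). Between genotypes on vehicle, the log2 difference of Lpl was 2.90 (SE 0.30, adjusted p = 1.37e-09) for W/F against W/W. For F/F against W/W it was 2.36 (SE 0.30, adjusted p = 3.25e-08), and 1.52 after rescaling. On T0901317 both mutants were lower than W/W, with -2.82 (SE 0.30, adjusted p = 3.77e-08) in W/F. The F/F value was -0.73 (SE 0.30, adjusted p = 0.0355), with overlapping mice, and this call was lost without F/F T0901317 replicate 2 or 3 or W/W T0901317 replicate 2 or 4, with values from -0.65 to -0.58 and adjusted p from 0.0876 to 0.12, and with no filter on low values (adjusted p = 0.0669). After rescaling it was -1.25 (adjusted p = 0.000306).

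Macrophages express Lpl, and the summed macrophage markers moved with it in part. All 9 markers of the list were found, and their sum was 122 to 183 TPM in W/W chow, 200 to 246 in W/W vehicle and 205 to 429.5 in W/W T0901317. In W/F it was 69.2 to 156 on chow, 928 to 1411 on vehicle and 129.5 to 739 on T0901317. In F/F it was 117 to 188, 858 to 1106 and 452 to 697 TPM. Lpl and the markers were thus both high in W/F and F/F vehicle. The 4 W/W T0901317 mice had 205, 429.5, 337.5 and 326.9 TPM of markers. Their Lpl, in the same order, was 97.1, 123, 76.3 and 128 TPM. In the F/F vehicle mice, 2 Kupffer cell markers of the list, Clec4f and Timd4, were near 0, at 0.168 to 0.508 TPM and 0 to 0.210 TPM. The other 7 of the 9 markers had means of at least 1 TPM in this group. Among them Gpnmb, a gene of lipid-laden macrophages, was at 462 to 601 TPM. Means of at least 1 TPM were reached by 8 of the 9 in F/F chow and in W/F vehicle. In bulk tissue a change in the number of such cells and a change in RNA per cell cannot be told apart, and the part of the macrophage markers in these results was not tested. The adipocyte list cannot be read as fat tissue: Lep was at 0 in all 36 libraries, and Adipoq, Plin1 and Retn reached at most 0.248, 0.147 and 0.507 TPM. The F/F vehicle library with muscle markers had 79.0 TPM of Lpl, within the range of the other 3, and without it the difference from W/W vehicle was 2.37.

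**Figure D3:**
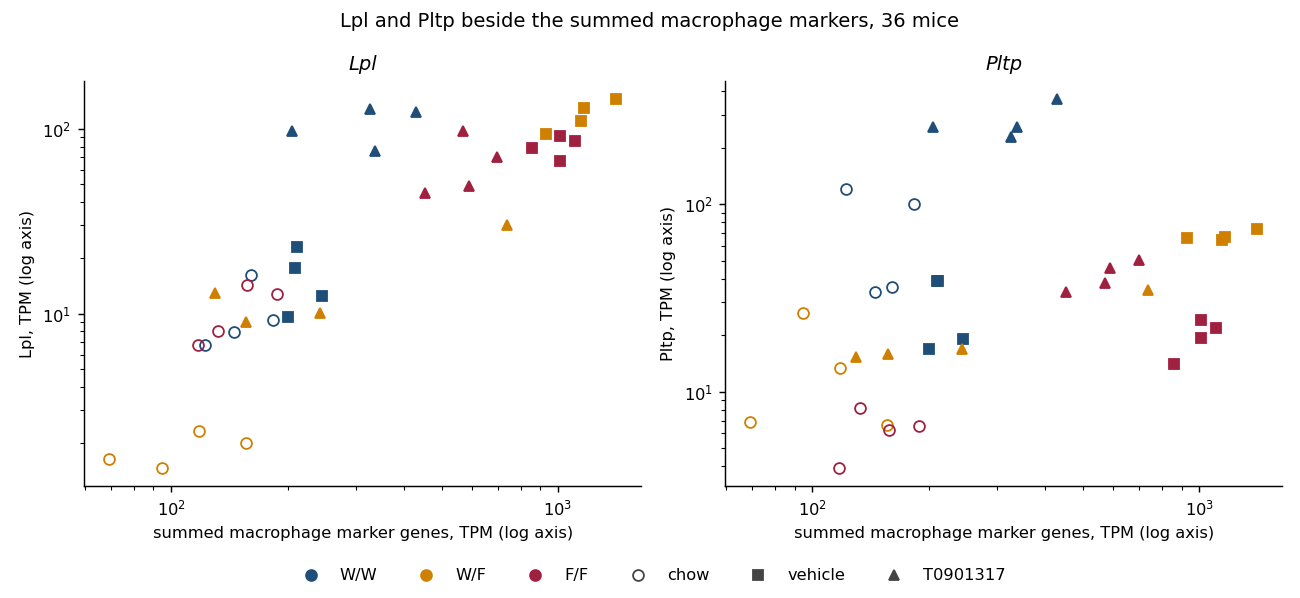
TPM of Lpl and Pltp (vertical, log axes) against the sum of 9 macrophage marker genes in TPM (horizontal, log axes) in 36 mice, coloured by genotype with symbols for treatment. W/W T0901317 mice lie high on both plots at 205 to 429.5 TPM of markers, and W/F and F/F vehicle mice lie at 858 to 1411 TPM of markers.

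Gpihbp1, the capillary anchor of lipoprotein lipase, stayed between 5.05 and 17.4 TPM in all mice. T0901317 gave a called difference in W/F livers, from 6.79, 7.28, 5.05 and 10.1 TPM to 10.6, 9.87, 13.2 and 13.1 TPM, a log2 rise of 0.64 (SE 0.21, adjusted p = 0.00768) and of 1.18 after rescaling. A single vehicle mouse overlapped the treated group. On vehicle the log2 difference was -0.47 (SE 0.21, adjusted p = 0.0436) for W/F against W/W and 0.65 (SE 0.21, adjusted p = 0.0226) for F/F against W/F. The W/F call against W/W was lost without W/F vehicle replicate 1, 2 or 3 or W/W vehicle replicate 2, 3 or 4, with values from -0.48 to -0.33 and adjusted p from 0.0633 to 0.182, and with no filter (adjusted p = 0.0792), while after rescaling it was -1.06 (adjusted p = 3.49e-05). The F/F value was 0.45 (adjusted p = 0.15) after rescaling, and its call was lost without F/F vehicle replicate 4 (0.48, adjusted p = 0.114) or W/F vehicle replicate 3 (0.51, adjusted p = 0.0967) and with only those 2 groups fitted (adjusted p = 0.0835). Rescaling turned F/F against W/W on vehicle from 0.18 to -0.60 (adjusted p = 0.00896), and the diet in W/F went from -0.25 to -0.69 (adjusted p = 0.00359). The summed endothelial markers, 8 genes all found, were lowest in the same W/F vehicle group, at 49.3 to 71.2 TPM against 79.8 to 99.0 TPM with T0901317, and the part of endothelial cells in the Gpihbp1 values was not tested.

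Angptl4, a fasting-induced inhibitor of lipoprotein lipase, varied little, with group means from 50.4 to 80.3 TPM. No agonist comparison was called: the log2 differences were 0.34 in W/W (95% interval -0.08 to 0.75), 0.32 in W/F (-0.09 to 0.74) and -0.37 in F/F (-0.78 to 0.05). After rescaling the W/F value was 0.92 (adjusted p = 0.000785). On vehicle, F/F mice had 72.2, 88.7, 78.6 and 81.7 TPM, W/W mice 63.5, 53.4, 41.3 and 61.2 TPM and W/F mice 71.9, 38.3, 38.6 and 52.9 TPM. All 4 F/F mice were above all mice of both other genotypes. F/F was above W/W by 0.56 (SE 0.20, adjusted p = 0.0143) and above W/F by 0.71 (SE 0.20, adjusted p = 0.0134), but the first turned to -0.30 (adjusted p = 0.253) after rescaling and the second became 0.50 (adjusted p = 0.153). The first was lost without W/W vehicle replicate 3 (0.43, adjusted p = 0.0705), and the second without W/F vehicle replicate 2 (0.59, adjusted p = 0.056) or 3 (0.60, adjusted p = 0.0566). The diet gave -0.50 (SE 0.20, adjusted p = 0.0339) in W/F, a call lost without W/F chow replicate 1, 2 or 4 or W/F vehicle replicate 2 or 3, with values from -0.46 to -0.39 and adjusted p from 0.075 to 0.128. It was also lost with no filter (adjusted p = 0.0624) and with only those 2 groups fitted (adjusted p = 0.115), and rescaling gave -0.99. Rescaling also moved W/F against W/W on vehicle from -0.15 to -0.80 (adjusted p = 0.00266) and F/F against W/W on T0901317 from -0.15 to -0.67 (adjusted p = 0.0127).

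Angptl8, a feeding- and insulin-induced regulator of lipoprotein lipase, was highest in W/W mice on the MASH diet with vehicle and varied most among mice of 1 group. The highest mouse of a group had 1.83 to 5.07 times the TPM of the lowest, with a median ratio of 3.69 over the 9 groups, against 1.17 for Lcat. W/W mice had 198, 42.8, 144 and 47.05 TPM on chow, 117, 466, 237 and 551 TPM on vehicle and 127, 186, 221 and 77.6 TPM on T0901317. The vehicle group reached the highest values but overlapped both others. The log2 difference was 1.72 (SE 0.56, adjusted p = 0.0389) for the diet and -1.03 (SE 0.56, adjusted p = 0.28) for T0901317. The diet call was lost without W/W chow replicate 2 or 4 or W/W vehicle replicate 2, 3 or 4, with values from 1.39 to 1.82 and adjusted p from 0.0563 to 0.162, with no filter (adjusted p = 0.0843) and with only those 2 groups fitted (adjusted p = 0.176).

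In W/F mice Angptl8 was 83.8, 89.7, 85.7 and 49.05 TPM on chow, 149, 71.4, 46.1 and 63.1 TPM on vehicle and 257, 314, 239 and 154 TPM on T0901317. The treated mice were all above the vehicle mice, and the log2 rise was 1.63 (SE 0.56, adjusted p = 0.0116). In F/F mice it was 28.04, 33.2, 142 and 32.9 TPM, 151, 81.6, 111 and 31.3 TPM and 110.0, 119.8, 310.0 and 84.0 TPM in the same order, with overlap throughout. The F/F response to T0901317 was 0.74 (SE 0.56, adjusted p = 0.305). The agonist response in W/F exceeded that in W/W by 2.66 (SE 0.79, adjusted p = 0.00492), and in F/F the corresponding difference was 1.77 (SE 0.79, adjusted p = 0.0875). Without W/W vehicle replicate 1, the library with the pancreas markers, the F/F difference was 2.21 (adjusted p = 0.0412). On vehicle both mutants were below W/W, with overlapping mice, at -1.95 (SE 0.56, adjusted p = 0.00288) in W/F and -1.83 (SE 0.56, adjusted p = 0.00408) in F/F. The labels used here do not give the feeding state at sampling, and its part was not tested.

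Lipc, the hepatocyte enzyme that trims remnants and HDL, was lowest in F/F mice on the MASH diet with vehicle. These had 53.7, 73.3, 59.4 and 58.2 TPM, against 122, 99.7, 134 and 131 TPM on chow and 153, 103, 149.6 and 150.5 TPM on T0901317. The vehicle group lay below both others without overlap. The log2 change was -0.98 (SE 0.16, adjusted p = 5.46e-06) with the diet and 1.16 (SE 0.16, adjusted p = 4.54e-06) with T0901317, where the W/W values were 0.27 and -0.08. The F/F response differed from the W/W response by -1.25 (SE 0.22, adjusted p = 7.23e-05) for the diet and 1.24 (SE 0.22, adjusted p = 0.00018) for the agonist. In W/F the vehicle mice had 107, 111, 105 and 115 TPM and the treated mice 144, 129.9, 167 and 192 TPM, again without overlap, and the rise was 0.52 (SE 0.16, adjusted p = 0.00526), or 1.12 after rescaling. It exceeded the W/W value by 0.59 (SE 0.22, adjusted p = 0.024), or 1.27 after rescaling, a call lost without W/F T0901317 replicate 4 (0.50, adjusted p = 0.0637).

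Lipc on vehicle thus fell from 158 ± 11.3 TPM (SD, n = 4) in W/W to 109 ± 4.55 TPM (SD, n = 4) in W/F and 61.1 ± 8.46 TPM (SD, n = 4) in F/F. The log2 differences were -0.52 (SE 0.16, adjusted p = 0.00462) for W/F against W/W, -0.84 (SE 0.16, adjusted p = 0.000398) for F/F against W/F and -1.36 (SE 0.16, adjusted p = 6.02e-09) for F/F against W/W, and after rescaling the comparisons with W/W gave -1.18 and -2.21. The diet in W/F gave -0.21 (SE 0.16, adjusted p = 0.249), which became -0.71 (adjusted p = 0.000488). None of the 3 genotype comparisons of Lipc was called on chow or on T0901317, but after rescaling F/F was lower than W/W there too, at -0.49 (adjusted p = 0.0223) and -0.64 (adjusted p = 0.00182), and lower than W/F at -0.42 (adjusted p = 0.0492) and -0.73 (adjusted p = 0.000669). The summed hepatocyte markers were also lowest in F/F vehicle, at 24990 to 28351 TPM against 49722 to 72422 TPM in W/W vehicle, and their part in the Lipc values was not tested.

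Lipg, the endothelial lipase gene, fell with the MASH diet in both mutant genotypes. W/F mice had 24.97, 15.6, 9.06 and 9.29 TPM on chow and 5.16, 2.24, 1.60 and 3.04 TPM on vehicle, without overlap, a log2 difference of -1.93 (SE 0.37, adjusted p = 3.81e-05). F/F mice had 16.6, 3.49, 14.1 and 12.7 TPM and 3.003, 3.71, 4.10 and 3.36 TPM, and a single chow mouse lay within the vehicle range. Their difference was -1.32 (SE 0.37, adjusted p = 0.00295), and in W/W it was -0.57 (SE 0.37, adjusted p = 0.351). The W/F change differed from the W/W change by -1.36 (SE 0.52, adjusted p = 0.0272), and this call was lost without W/F chow replicate 1, W/F vehicle replicate 2 or 3, W/W chow replicate 4 or W/W vehicle replicate 2 or 4, with values from -1.28 to -1.08 and adjusted p from 0.0502 to 0.0798, and with no filter (adjusted p = 0.0558). On vehicle W/F against W/W gave -0.89 (SE 0.37, adjusted p = 0.0327), with overlapping mice, a call lost without W/F vehicle replicate 2 or 3 or W/W vehicle replicate 2 or 4, with values from -0.81 to -0.62 and adjusted p from 0.0769 to 0.153. It was also lost with no filter (adjusted p = 0.0633) and with only those 2 groups fitted (adjusted p = 0.0741), and rescaling gave -1.40. F/F against W/W on vehicle gave -0.64 (SE 0.37, adjusted p = 0.114), which became -1.32 (adjusted p = 0.00174) after rescaling.

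T0901317 gave no called change of Lipg, at 0.52, -0.04 and -0.45 in W/W, W/F and F/F. With the agonist the W/W mice had 9.26, 6.43, 10.2 and 11.1 TPM, the W/F mice 3.01, 3.71, 1.89 and 2.38 TPM and the F/F mice 4.43, 2.17, 1.32 and 2.02 TPM. All W/W mice were above all mutant mice. The differences from W/W were -1.45 (SE 0.37, adjusted p = 0.00852) in W/F and -1.60 (SE 0.37, adjusted p = 0.000387) in F/F.

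Pltp, whose product transfers phospholipid to HDL, rose with T0901317 in W/W and F/F livers and fell in W/F livers. W/W mice had 16.9, 38.7, 38.96 and 19.1 TPM on vehicle and 259, 363, 258 and 227 TPM on T0901317. The treated mice were above every other mouse of the study, and the log2 rise was 3.32 (SE 0.37, adjusted p = 1.39e-07). W/F mice had 65.7, 66.6, 73.9 and 64.5 TPM on vehicle and 15.9, 34.98, 16.8 and 15.3 TPM on T0901317. All treated W/F mice were below all vehicle mice, a difference of -1.74 (SE 0.37, adjusted p = 0.000137), and it was -2.01 without the library with raised macrophage markers and -1.15 after rescaling. F/F mice had 19.3, 23.99, 14.1 and 21.8 TPM and 38.2, 45.5, 33.95 and 50.6 TPM, without overlap, a rise of 1.06 (SE 0.37, adjusted p = 0.0265). This last call was lost without F/F T0901317 replicate 2, F/F T0901317 replicate 4 or F/F vehicle replicate 3, with values from 0.91 to 1.02 and adjusted p from 0.0508 to 0.0804.

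The agonist response of Pltp differed from W/W by -5.06 (SE 0.52, adjusted p = 6.21e-09) in W/F and -2.26 (SE 0.52, adjusted p = 0.00205) in F/F. The diet response differed from W/W by 3.67 (SE 0.52, adjusted p = 1.27e-06) and 2.74 (SE 0.52, adjusted p = 0.000142). Within genotypes the diet gave -1.20 (SE 0.37, adjusted p = 0.0286) in W/W, 2.47 (SE 0.37, adjusted p = 1.06e-06) in W/F and 1.54 (SE 0.37, adjusted p = 0.00076) in F/F. The W/W groups overlapped, and their call was lost without W/W chow replicate 1 or 4 or W/W vehicle replicate 1 or 4, with values from -1.05 to -0.89 and adjusted p from 0.0808 to 0.133, with no filter (adjusted p = 0.0628) and with only those 2 groups fitted (adjusted p = 0.204). W/W vehicle replicate 1 is the library with the pancreas markers.

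On chow Pltp was lower in both mutant genotypes than in W/W. The values were 120.2, 35.96, 33.9 and 101 TPM in W/W, 6.88, 26.2, 13.3 and 6.60 TPM in W/F and 8.18, 3.91, 6.54 and 6.22 TPM in F/F. Both mutant groups lay wholly below W/W and, in deposited TPM, overlapped each other. The log2 difference from W/W was -2.35 (SE 0.37, adjusted p = 0.000392) in W/F and -3.17 (SE 0.37, adjusted p = 8.57e-08) in F/F, and F/F against W/F gave -0.81 (SE 0.37, adjusted p = 0.0767), which became -1.13 (adjusted p = 0.0154) after rescaling. The W/F value had an adjusted p of 0.469 when only those 2 groups were fitted. On T0901317 the differences from W/W were -3.74 (SE 0.37, adjusted p = 7.9e-09) in W/F and -2.68 (SE 0.37, adjusted p = 4.15e-07) in F/F. On vehicle W/F was above W/W by 1.32 (SE 0.37, adjusted p = 0.00227), which became 0.67 (adjusted p = 0.114) after rescaling, and F/F differed from W/W by -0.43 (SE 0.37, adjusted p = 0.294), which became -1.25 (adjusted p = 0.00312).

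Lcat, which encodes the enzyme that esterifies the cholesterol of HDL, moved in opposite directions with the agonist in W/W and W/F livers, and its spread within groups was small. T0901317 lowered it in W/W mice, from 517, 575, 636 and 506 TPM to 374, 357, 387 and 345 TPM, and raised it in W/F mice, from 371, 408, 429 and 458 TPM to 552, 580.5, 583 and 551 TPM. Neither pair of groups overlapped. The log2 differences were -0.60 (SE 0.08, adjusted p = 5.24e-06) and 0.45 (SE 0.08, adjusted p = 2.94e-05), and in F/F, where the groups overlapped, 0.08 (SE 0.08, adjusted p = 0.47). After rescaling the W/F value was 1.05 and the F/F value 0.35 (adjusted p = 0.0357). The response differed from W/W by 1.05 (SE 0.12, adjusted p = 2.46e-08) in W/F, or 1.73 after rescaling, and by 0.68 (SE 0.12, adjusted p = 0.000109) in F/F.

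With the diet Lcat in W/F fell by 0.38 (SE 0.08, adjusted p = 0.00023). The F/F mice fell by 0.47 (SE 0.08, adjusted p = 2.01e-05), and the W/W value was 0.13 (SE 0.08, adjusted p = 0.353). After rescaling the mutant values were -0.88 and -0.82, and their differences from W/W, -0.51 and -0.60 in deposited TPM, were -1.14 and -1.08. On vehicle the differences from W/W were -0.42 (SE 0.08, adjusted p = 5.72e-05) in W/F and -0.35 (SE 0.08, adjusted p = 0.000361) in F/F, and -1.08 and -1.22 after rescaling. The summed hepatocyte markers in these vehicle groups were 45621 to 54913 TPM in W/F and 24990 to 28351 TPM in F/F, against 49722 to 72422 TPM in W/W, and their part in the Lcat values was not tested. On T0901317 W/F was above W/W by 0.63 (SE 0.08, adjusted p = 2.29e-06). F/F was above W/W by 0.25 (SE 0.08, adjusted p = 0.0156) on chow and 0.33 (SE 0.08, adjusted p = 0.000998) on T0901317, but these turned to -0.14 (adjusted p = 0.408) and -0.19 (adjusted p = 0.17) after rescaling, so their direction rests on the scaling.

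**Figure D4:**
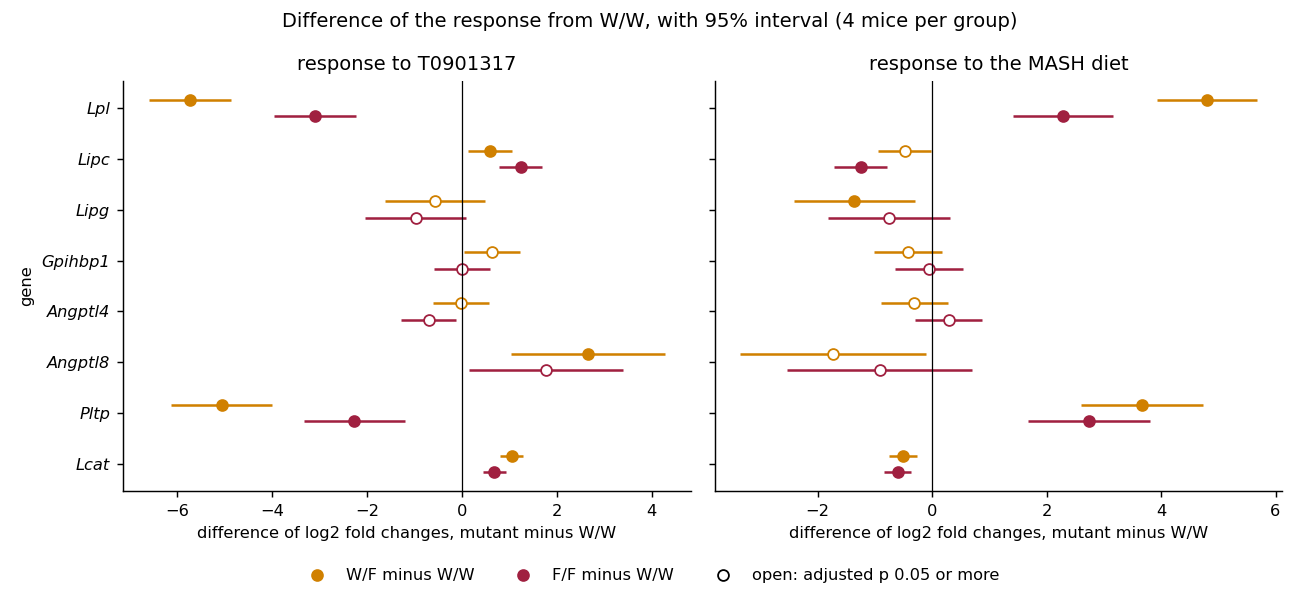
Difference between the response of W/F or F/F and that of W/W mice, in log2 units (horizontal) with 95% intervals, for the agonist at left and the diet at right, and filled points where the adjusted p was under 0.05. Lpl and Pltp lie left of 0 for the agonist (-5.73 and -5.06 in W/F) and right of 0 for the diet (4.80 and 3.67 in W/F), and the vehicle mice enter both panels.

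The 4 tests of a different response called 5 of the 8 genes for the agonist in W/F (58.5% of all genes) and 4 in F/F (30.4%). They called 4 for the diet in W/F (54.6%) and 4 in F/F (46%). Lpl, Pltp and Lcat were called in all 4. The agonist and diet tests share the vehicle mice, so a vehicle group that stands apart enters both with opposite signs. The splits were 3 higher and 2 lower, 2 higher and 2 lower, 2 higher and 2 lower and 2 higher and 2 lower, and 4 higher and 2 lower, 2 higher and 2 lower, 2 higher and 6 lower and 2 higher and 2 lower after rescaling, beside 43.9%, 17.4%, 40.1% and 26.8% of all genes. The genes called only after rescaling were Gpihbp1 for the agonist in W/F, at 1.24 (adjusted p = 0.000532), and 4 genes for the diet in W/F: Lipc at -1.11 (adjusted p = 0.000291), Gpihbp1 at -0.98 (adjusted p = 0.00529), Angptl4 at -0.94 (adjusted p = 0.016) and Angptl8 at -2.36 (adjusted p = 0.0171). The Gpihbp1 difference for the agonist in W/F was also called without W/F T0901317 replicate 2 (0.71, adjusted p = 0.0446) or W/W vehicle replicate 1 (0.72, adjusted p = 0.0438), and the Angptl8 difference for the diet in W/F without W/W vehicle replicate 1 (-2.17, adjusted p = 0.0235).

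Of the genes that activate, inhibit or mature lipoprotein lipase, 12 of 12 listed were tested. Called higher and lower with T0901317 were 1 and 2 in W/W, 7 and 2 in W/F and 5 and 1 in F/F. Of all genes 10.8%, 65.9% and 35.1% were called. After rescaling the splits were 1 and 1, 8 and 1, and 6 and none, beside 13.5%, 50.8% and 16.3% of all genes. The list's median log2 changes of -0.04, 0.30 and 0.06 stood beside 0.06, -0.49 and -0.24 for all genes.

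Apoc1, which encodes a small apolipoprotein that inhibits lipase action on lipoproteins, was lower with each mutant allele on chow. The means were 5520.0 ± 632 TPM (SD, n = 4) in W/W, 3396 ± 487 TPM (SD, n = 4) in W/F and 1766 ± 85.98 TPM (SD, n = 4) in F/F, without overlap. The log2 difference was -0.70 (SE 0.11, adjusted p = 0.000447) for W/F against W/W, -0.93 (SE 0.11, adjusted p = 2.2e-07) for F/F against W/F and -1.64 (SE 0.11, adjusted p = 6.39e-12) for F/F against W/W. T0901317 raised it by 1.27 (SE 0.11, adjusted p = 1.72e-09) in F/F, whereas the W/W value was -0.11 (SE 0.11, adjusted p = 0.642).

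Of 9 genes of remnant and fatty acid uptake, all tested, T0901317 gave 3 higher and none lower in W/W. The splits were 1 and 5 in W/F and 1 and 1 in F/F. Beside these, 10.8%, 65.9% and 35.1% of all genes were called in W/W, W/F and F/F. The list medians of -0.01, -0.40 and -0.08 stood beside 0.06, -0.49 and -0.24 for all genes. After rescaling the W/F split was 3 higher and none lower, beside 50.8% of all genes. The F/F split was then 4 higher and none lower, beside 16.3%. Cd36, a fatty acid transporter and scavenger receptor, was 66.5, 76.5, 84.2 and 34.1 TPM on vehicle and 197, 232, 196 and 180.0 TPM on T0901317 in W/W, without overlap, a rise of 1.68 (SE 0.31, adjusted p = 0.000353). In W/F it was 78.03, 102, 132 and 116 TPM and 57.7, 78.8, 38.8 and 32.1 TPM, a single treated mouse overlapping the vehicle group, and the difference of -1.09 (SE 0.31, adjusted p = 0.00293) became -0.49 (adjusted p = 0.194) after rescaling. The response in W/F differed from that in W/W by -2.77 (SE 0.44, adjusted p = 5.28e-06).

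**Figure D5:**
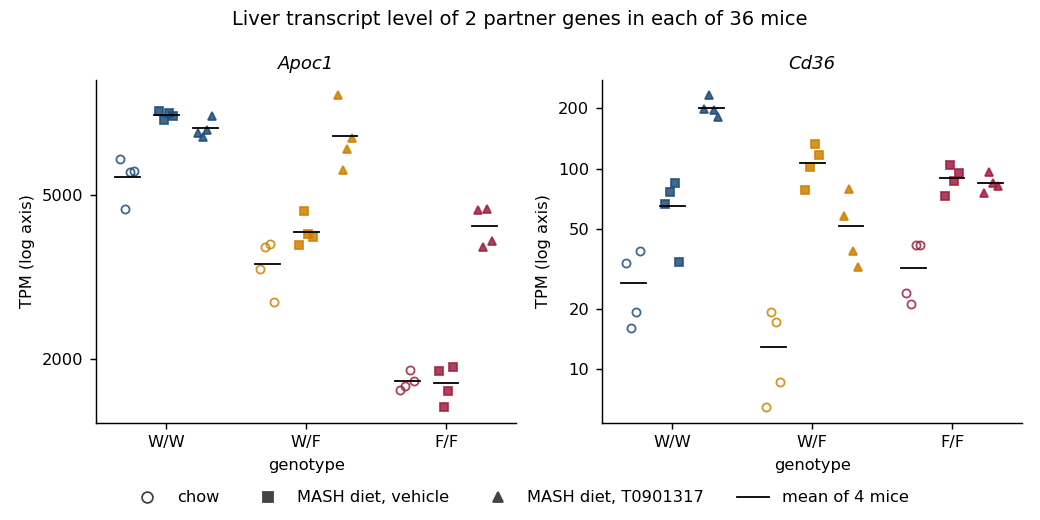
TPM (log axes) of Apoc1 and Cd36 in each of 36 mice, with the mean of 4 mice as a line. Apoc1 on chow steps down from 5520.0 TPM in W/W to 3396 in W/F and 1766 in F/F, and Cd36 with T0901317 stands at 201 TPM in W/W and 51.9 in W/F.

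Of 5 genes of HDL formation, T0901317 gave 1 higher and 1 lower in W/W and 3 higher and none lower in W/F. The F/F split was 4 higher and none lower. Beside these, 10.8%, 65.9% and 35.1% of all genes were called in W/W, W/F and F/F. The list medians of -0.24, 0.47 and 0.67 stood beside 0.06, -0.49 and -0.24 for all genes. After rescaling the splits were 1 higher and 2 lower in W/W and 5 higher and none lower in each mutant genotype. The shares of all genes were then 13.5%, 50.8% and 16.3%. Apoa1, the main protein of HDL, fell by 0.51 (SE 0.11, adjusted p = 0.00236) in W/W and rose by 0.47 (SE 0.11, adjusted p = 0.000607) in W/F. Pon1, an HDL-bound esterase, fell with the diet in both mutant genotypes, with log2 changes of -1.34 (SE 0.13, adjusted p = 7.3e-10) in W/F and -1.91 (SE 0.13, adjusted p = 3.18e-12) in F/F. The W/W value was 0.08 (SE 0.13, adjusted p = 0.802). Of 9 other extracellular or lysosomal lipases listed, 3 passed the filter on low values. Lipa, the lysosomal acid lipase, was 161 TPM on vehicle and 269 TPM on T0901317 in W/W and 285 and 129.9 TPM in W/F. The agonist response differed by -1.88 (SE 0.25, adjusted p = 4.05e-07). Within W/F the agonist gave -1.12 (SE 0.18, adjusted p = 2.7e-06), which became -0.52 (adjusted p = 0.006) after rescaling. Pla1a, which encodes a phospholipase, was higher in F/F than in W/W on vehicle by 1.54 (SE 0.13, adjusted p = 8.12e-12). After rescaling that difference was 0.68 (adjusted p = 6.55e-07). The pancreatic lipases Pnlip and Cel were at 29.0 and 12.6 TPM in W/W vehicle replicate 1 and at most 0.136 TPM in all other libraries, and were named after their values were seen.

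The genes whose pattern was most like each member were found by Pearson correlation of log2(TPM + 1) over the 36 libraries among 11084 genes, as a description, since the libraries fall into the same 9 groups for every gene. Lpl was closest to 5031439G07Rik (0.930), Tmem268 (0.922) and Arhgef16 (0.909), and Pltp to Tmem135 (0.875), Rab9 (0.832) and Rnd2 (0.827). Lipc was closest to Cyp2a12 (0.879), Aldh2 (0.862) and Cyp2c50 (0.858), which are hepatocyte enzymes, and Lcat to Tfr2 (0.807), Agxt (0.797) and Rdh16f2 (0.791). Lipg was closest to Fdps (0.844), Ropn1l (0.842) and Nsdhl (0.837), of which Fdps and Nsdhl are enzymes of cholesterol synthesis. Of the 3 genes closest to Angptl8, G0s2 had 0.760 and Cyp2d22 0.713. Gpihbp1 was closest to the endothelial genes Tie1 (0.724), Clec14a (0.723) and Pecam1 (0.697). For Angptl4 no gene exceeded 0.585 (Tbc1d30). After rescaling the closest gene was again Cyp2a12 for Lipc (0.953), and for 6 members another gene came first. Among the members, Lpl and Pltp correlated at 0.60 and Lpl and Lcat at -0.74, and at 0.57 and -0.67 after rescaling. Pltp and Lcat correlated at -0.72, but at -0.11 after rescaling.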

How the data were processed

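The authors deposited TPM (transcripts per 1000000) of 49315 genes in 36 liver libraries, and each column sums to 1000000. Per the submitters' processing notes, the tools were Trimmomatic 0.36, STAR 2.5.2b, featureCounts and Subread 1.5.2 with build GRCm38/mm10. The annotation, the strand setting and the step from counts to TPM are not given in the sources used here. Depth in reads assigned to genes was recovered from whole-read steps of low TPM values (93.7% to 95.7% of values under 20 reads lay within 0.1 of a whole number). It served for description only.

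Groups and replicate numbers came from the labels, 4 mice each, and p-values measure the spread between these mice. A gene entered the test when 4 or more samples had 1 TPM or more, which 16638 genes did, and log2(TPM + 1) was fitted with limma 3.58.1 (R 4.3.3, trend, 9 group means, all libraries), with Benjamini-Hochberg adjustment per comparison. The fit was tested on simulated data. Rescaled TPM divide each library by its median ratio over 14786 genes, with factors of 0.693 to 1.48.

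The members and gene lists were chosen with earlier results of these data known. Partner genes were named by rule, as the 2 called genes with the largest rise and the 2 with the largest fall per comparison, at 5 TPM or more in the higher group and with no overlap of samples, and then given in other comparisons too. Alternatives were a pseudocount of 0.1, a filter of 5 TPM, no filter, rescaled TPM, a replicate block, array weights, fits of only the groups compared, and leaving out each library. Promoter windows are from RefSeq, and no window was used for the other 4 genes. Values of some listed genes are not reported here.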

Additional observations from a re-analysis of the deposited data

Results flagged for a closer look

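In 7 of the 72 combinations of gene and group, 1 mouse stood far from the other 3 (gap over range above Dixon's critical value for 4 samples). Chance marks about 1 in 20 such groups if values are independent and normally distributed. The values here are unlogged TPM, and the 72 combinations come from the same 36 mice, so that rate is only a rough guide. The values were 103 TPM of Lipc in F/F T0901317 replicate 2, 86.4 TPM of Lipc in W/F chow replicate 4, 35.0 TPM of Pltp in W/F T0901317 replicate 2, 552 TPM of Lcat in F/F T0901317 replicate 3, and, for Angptl8, 142 TPM in F/F chow replicate 3, 310.0 TPM in F/F T0901317 replicate 3 and 49.1 TPM in W/F chow replicate 4.

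The response of a mutant genotype differed from that of W/W, by limma's test of the difference itself, in 17 of the 32 tests of the 8 genes. Over all genes tested the same differences were called in 58.5% for the agonist in W/F, 30.4% for the agonist in F/F, 54.6% for the diet in W/F and 46% for the diet in F/F. For the agonist in W/F the log2 differences were -5.73 for Lpl, 0.59 for Lipc, -5.06 for Pltp, 1.05 for Lcat and 2.66 for Angptl8. For the agonist in F/F they were -3.09 for Lpl, 1.24 for Lipc, -2.26 for Pltp and 0.68 for Lcat. For the diet in W/F they were 4.80 for Lpl, -1.36 for Lipg, 3.67 for Pltp and -0.51 for Lcat. For the diet in F/F they were 2.29 for Lpl, -1.25 for Lipc, 2.74 for Pltp and -0.60 for Lcat. The 4 sets share the W/W mice, and those of a genotype share its vehicle mice.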

How the results depend on the processing

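Of the 72 called values, all kept direction and call with a pseudocount of 0.1, a 5 TPM filter and array weights. Rescaling reversed 3 of them, Lcat in F/F against W/W on chow (-0.14) and on T0901317 (-0.19) and Angptl4 in F/F against W/W on vehicle (-0.30), and ended 4 other calls. No filter and a fit of only the groups compared each ended 7. Rescaling moved the count of called genes from 1 to 3 in F/F against W/F on chow, from 4 to 2 on vehicle, and from 4 to 8 for the difference of the diet response in W/F. Array weights moved the first to 2. For the diet in W/W the count fell from 2 to 0 with no filter and with only the groups compared, and the latter also took W/F against W/W (chow) from 2 to 0. Leaving out 1 library gave 0 to 2 genes for the diet in W/W, 1 to 2 for T0901317 in F/F, 1 to 2 for F/F against W/F on chow and 2 to 4 on vehicle. The libraries that moved these counts by over 1.5 times were F/F T0901317 replicates 2 and 4 and F/F vehicle replicate 3 (to 1), all W/W chow and vehicle libraries except W/W chow replicate 3 (to 0 or 1), W/F chow replicates 1 and 4 (to 2) and W/F vehicle replicate 3 (to 2). The cause was not tested, except that fewer libraries or other genes enter some fits. The share of all genes called for the diet in W/W was 3.49% with only the groups compared, against 12.9%, and in the chow comparison of W/F with W/W it was 0.018% by that fit and 0.793% with array weights, against 0.487%. Array weights took W/F against W/W on T0901317 from 9.88% to 17.6%. No filter, with more genes tested, lowered all 19 shares, by at least 1.5 times, to 4.58%, 35.9% and 18.7% for T0901317 in W/W, W/F and F/F. At 4 mice per group the SE of Angptl8, 0.56, limits what can be called for it.

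With the replicate number as a block, all 72 values kept direction and call, and the counts were 3, 6 and 2 for T0901317 in W/W, W/F and F/F. In none of 15 comparisons did all 4 same-numbered pairs correlate above 0.1. In W/F against W/W on T0901317, 3 of the 4 pairs did, with values from 0.05 to 0.30. Other structure by replicate number was not tested.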

Other observations

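Lpl on chow did not follow the number of mutant alleles. The heterozygotes, at 1.46 to 2.32 TPM, lay below W/W (6.79 to 16.1 TPM) and F/F (6.76 to 14.4 TPM), whereas Apoc1 was lower with each mutant allele. Cd36 on chow had its lowest mean in W/F too, at 12.8 TPM against 26.9 in W/W and 32.02 in F/F. The limma difference of Cd36 was 1.31 (SE 0.31, adjusted p = 0.00129) for F/F against W/F and -1.05 (SE 0.31, adjusted p = 0.228) for W/F against W/W.

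With T0901317 the W/F mice, at 20.7 TPM of Pltp, stood below the F/F mice at 42.05 TPM. The log2 difference was 1.06 (SE 0.37, adjusted p = 0.0142), and 0.53 (adjusted p = 0.244) after rescaling. Lpl had the same order, at 15.5 and 65.3 TPM. Its difference was 2.10 (SE 0.30, adjusted p = 1.23e-06), and 1.58 (adjusted p = 2.46e-05) after rescaling.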
